A study of Homo sapiens with 51 samples.

Results

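The comparison set 3 libraries of untreated PATU8988S cells against 3 libraries of untreated HPAFII cells, 6 of the 51 libraries of the series, chosen by their titles, which call both sets NORMAL. Both are established human cell lines of pancreatic ductal adenocarcinoma (PDA), the common cancer of the exocrine pancreas. The series measured RNA from PDA lines that were left untreated or were given lentiviral OVOL2 or mCherry, with or without the M2rtTA transactivator. OVOL2 is a transcription factor known for holding epithelial cells in their state. The 6 libraries carried no virus according to their treatment label, and RNA was collected after 6 days, with 100 ng of total RNA entering each library. The labels describe puromycin and doxycycline only for the transduced wells, and they do not say whether the untreated wells received either. Nothing in the labels says that replicates of a line were separate cultures, so the p-values measure the spread between these libraries, which may be technical. Each line stands for 1 tumour, so a difference between the lines cannot be told apart from a difference between 2 tumours of any kind. Likewise, in bulk RNA fewer cells of a kind and less RNA per cell cannot be told apart.

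PDA cells are commonly placed along an axis between a classical state and a basal-like state. Classical cells keep a glandular, gastrointestinal programme with mucus, trefoil peptides and the factor GATA6, whereas basal-like cells lose it and take on squamous keratins, laminins and matrix proteases. Lines also differ in growth factor feedback, in the interferon response and in lipid synthesis.

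Values are CPM, that is counts divided by the library total, adjusted by edgeR's TMM factor, and multiplied by the same constant in every library. The TMM factors were 0.898 to 0.928 in PATU8988S libraries and 0.963 to 1.101 in HPAFII libraries. CPM values come from a 3' end counting method and are compared between lines for the same gene only. A gene was called when the adjusted p of edgeR's quasi-likelihood test, fitted on all 15 untreated libraries of 5 lines, was under 0.05. Fold changes are log2 values of PATU8988S over HPAFII, so a positive value means higher in PATU8988S.

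The libraries were not of equal quality. PATU8988S libraries held 3817546 to 5089662 counts, and HPAFII replicates 1 and 3 held 3173357 and 3983186, while HPAFII replicate 2 held 1165399. Replicate 2 correlated with its mates at 0.877 and 0.878, below the 0.954 between replicates 1 and 3 and the 0.956 to 0.961 among PATU8988S libraries (Pearson's r across genes of log2(CPM + 1), a description). A gene at 5 times or more the level of both mates, with at least 20 counts, occurred 104 times in replicate 2, against 19 to 37 times in the other 5 libraries. In the comparison without replicate 2, 186 genes had a log2 fold change below -2 and at least 20 CPM in HPAFII. They stood in replicate 2 at a median of 0.447 of their level in its mates, and 166 of them lay below both mates. High levels in those mates entered the choice, so lower values in replicate 2 were partly built in. A set of 40 genes was chosen as higher in KP4 than in PATU8988S and HPAFII replicates 1 and 3. It summed to 8597 CPM in replicate 2 and, low by that choice, to 1179 and 998 CPM in its mates. The KP4 libraries held 7390, 46690 and 31680 CPM and the PANC1 libraries 5057, 4351 and 5372 CPM, so the sum does not mark KP4 alone. The matching PANC1 and PK45H sets summed to 3804 and 1958 CPM in replicate 2, also above both mates. In the same comparison 96 genes had a log2 fold change above 2 and at least 20 CPM, and 46 of them lay above both mates in replicate 2. Low levels in the mates likewise entered that choice. No share over all genes was computed for either count. The part of these features in the results was not tested. Fold changes and list counts below were also computed without replicate 2, whereas counts of genes whose libraries do not overlap, positions against the other lines and the 25-gene windows were computed with it. The share of counts from 13 mitochondrially encoded genes was 32.5% ± 0.933 (SD, n = 3) in PATU8988S and 27.7% ± 3.15 (SD, n = 3) in HPAFII, a difference of 4.86 percentage points (exact permutation test, two-sided p = 0.1, the smallest that 3 against 3 allows).

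The lines differed in 2783 of 13785 genes tested (20.2%). PATU8988S was higher for 1523 of them (11%) and HPAFII for 1260 (9.14%), and the median log2 fold change of all genes was -0.04. Beyond 4-fold in size, that is past a log2 value of 2, there were 255 genes higher in PATU8988S and 358 higher in HPAFII. Without HPAFII replicate 2, 2816 of 14224 genes were called (19.8%), 1425 higher in PATU8988S (10%) and 1391 higher in HPAFII (9.78%). The 2 versions shared 2280 calls, all in the same direction, of which 1240 were higher in PATU8988S and 1040 in HPAFII. Of the genes called with all libraries, 503 lost the call without replicate 2. Among the called genes higher in HPAFII, 824 of 1260 had a larger fold change without replicate 2. Across all genes tested, the libraries of the 2 lines did not overlap in CPM for 4650 (33.7%), with PATU8988S higher for 2599 (18.9%) and HPAFII for 2051 (14.9%).

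Genes tied to epithelial identity served to describe the 2 lines. The lines overlapped for them, so they cannot check which of the 2 line names a library bears. EPCAM, an epithelial adhesion molecule, was at 615, 654 and 677 CPM in PATU8988S and at 752, 333 and 719 CPM in HPAFII, against means of 27.4 to 42.7 CPM in KP4, PANC1 and PK45H. CDH1, which encodes E-cadherin, was at 96.1, 103 and 113 CPM in PATU8988S and at 85.6, 32.9 and 106 CPM in HPAFII. The 2 lines overlapped for both genes, and both stood far above the other 3 lines. VIM, the intermediate filament of mesenchymal cells, was at 141, 159 and 113 CPM in PATU8988S and at 211, 320 and 136 CPM in HPAFII, with means of 1782 CPM in KP4, 2919 CPM in PANC1 and 213 CPM in PK45H. The VIM libraries overlapped between the lines, and its log2 fold change of -0.69 ± 0.25 (SE) had an adjusted p of 0.0683. Without HPAFII replicate 3 it was called (-0.93, adjusted p = 0.011), and without replicate 2 it was -0.33 (adjusted p = 0.32). VIM was also called in the fit of all 51 libraries (-0.65, adjusted p = 0.00423) and by DESeq2 (-0.69, adjusted p = 0.0469). With all libraries thinned to the smallest total it was called too (-0.81, adjusted p = 0.0366). ZEB1, a repressor of epithelial genes, was at 6.57, 1.75 and 4.64 CPM in PATU8988S and at 6.34, 2.35 and 4.97 CPM in HPAFII, again overlapping. Neither EPCAM (adjusted p = 0.816), CDH1 (0.383) nor ZEB1 (0.808) was called.

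OVOL2 itself was higher in PATU8988S. Its level was 19.94, 19.95 and 27.2 CPM in PATU8988S and 6.98, 1.57 and 6.80 CPM in HPAFII, with no overlap. The log2 fold change was 1.98 ± 0.43 (SE, adjusted p = 0.00496), and 1.70 without replicate 2 (adjusted p = 0.00886). Means of 0.611 to 1.88 CPM were found in KP4, PANC1 and PK45H.

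The 23 genes plotted come from those with the largest differences that also met a level and a separation rule. Such a gene had a mean of at least 20 CPM in the higher line, no overlap between lines, and a call with and without replicate 2. The separation of these genes was thus set by the choice and does not measure the distance between the lines.

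**Figure D1:**
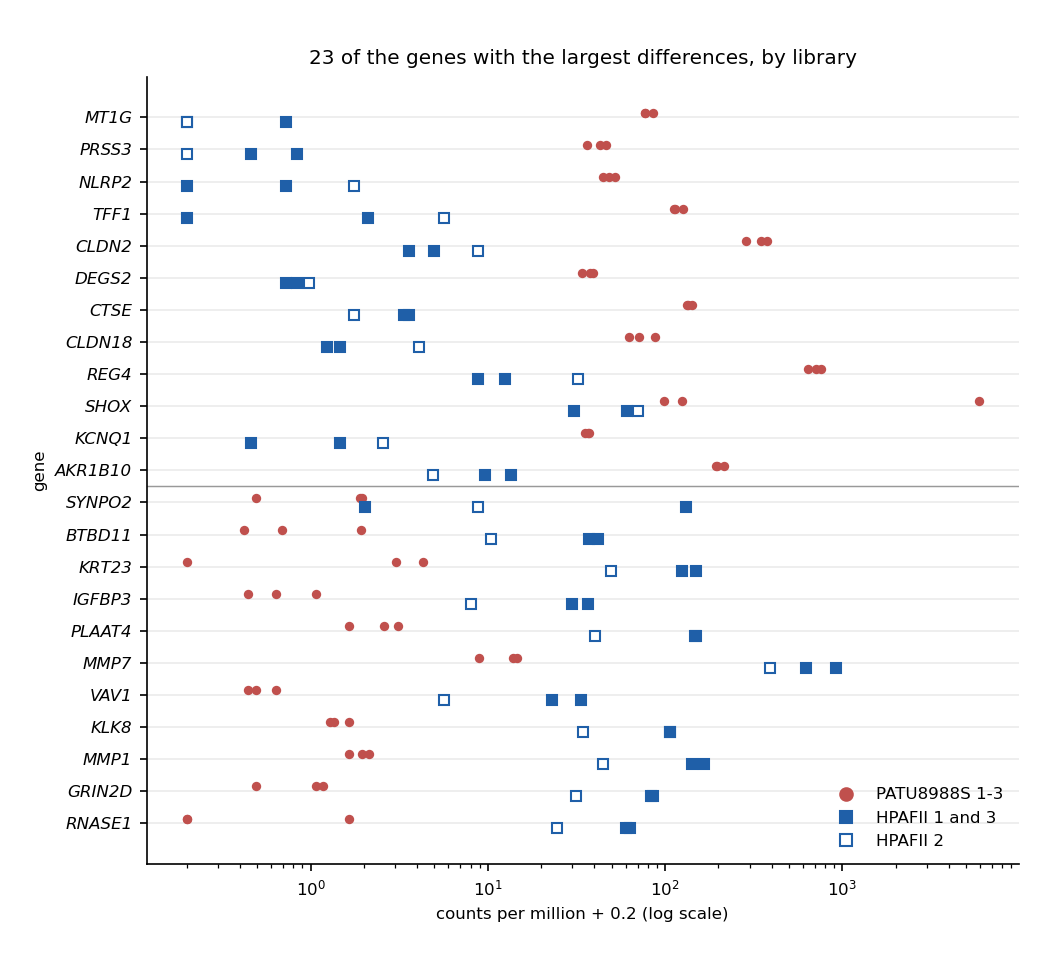
CPM plus 0.2 on a log axis for 23 of the genes with the largest fold changes, with 3 PATU8988S libraries (red circles), HPAFII replicates 1 and 3 (filled blue squares) and HPAFII replicate 2 (open squares). For the genes higher in HPAFII the open square lies to the left of both filled ones in every gene but SYNPO2, and SHOX and SYNPO2 each have 1 library far above its mates.

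On the PATU8988S side several of these genes encode proteins known from the stomach. TFF1, a trefoil peptide of gastric surface mucus (chr21:42362282-42366535 in GRCh38), was at 114, 125 and 112 CPM in PATU8988S and at 1.90, 5.48 and 0 CPM in HPAFII. CTSE, the aspartic protease cathepsin E (chr1:206009264-206023895), was at 133, 141 and 135 CPM in PATU8988S and at 3.17, 1.57 and 3.40 CPM in HPAFII. REG4, a secreted lectin (chr1:119794017-119811460), was at 639, 711 and 763 CPM in PATU8988S and at 12.4, 32.1 and 8.63 CPM in HPAFII. All 3 genes were high in every PATU8988S library and low in every HPAFII library, with no overlap, as the rule required. Their log2 fold changes were 6.06 ± 0.57 for TFF1 (adjusted p = 6.66e-06), 5.52 ± 0.24 for CTSE (6.67e-09) and 5.39 ± 0.43 for REG4 (2.38e-06; SE throughout). In KP4, PANC1 and PK45H no mean of TFF1 or CTSE exceeded 1.89 CPM, so on these 2 genes HPAFII lay near those lines and PATU8988S far above them. TFF2, the second gastric trefoil peptide, gave 170, 210 and 179 CPM against 11.4, 12.54 and 9.16 CPM, a log2 fold change of 4.10 ± 0.34 (adjusted p = 2.64e-06). It lies beside TFF1 on chromosome 21 (chr21:42346357-42350994).

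2 claudins, the pore and seal proteins of tight junctions, moved the same way. CLDN18, whose main forms belong to stomach and lung (chr3:137998816-138033649), was at 62.8, 71.0 and 87.5 CPM in PATU8988S and at 1.27, 3.92 and 1.05 CPM in HPAFII (log2 fold change 5.46 ± 0.37, adjusted p = 6.52e-07). CLDN2, a claudin of leaky epithelia (chrX:106900164-106930861), was at 287, 347 and 377 CPM in PATU8988S and at 4.76, 8.62 and 3.40 CPM in HPAFII (6.03 ± 0.43, adjusted p = 6.52e-07). Neither gene exceeded a mean of 2.53 CPM in the other 3 lines. The potassium channel gene KCNQ1 was at 37.0, 35.3 and 36.8 CPM against 1.27, 2.35 and 0.262 CPM, the sphingolipid desaturase gene DEGS2 at 33.8, 39.0 and 37.7 CPM against 0.634, 0.784 and 0.523 CPM. Both were level within PATU8988S and near 1 CPM in HPAFII. NLRP2, an intracellular sensor of the NLR family, was at 44.3, 52.0 and 48.4 CPM against 0, 1.57 and 0.523 CPM. PRSS3, a trypsinogen, was at 36.2, 42.8 and 46.4 CPM in PATU8988S and had 3 counts in all HPAFII libraries together, a ratio of 114 with a counting interval of 38.9 to 556. PRSS3 has close trypsinogen relatives, and how reads were split between them is uncertain. For SHOX, a homeobox gene, the call rested on replicate 2 of PATU8988S, with 98.5, 5897 and 124 CPM against 60.9, 70.5 and 30.4 CPM, and without it the log2 fold change was 1.07 (adjusted p = 0.177).

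Metallothioneins, small metal-binding proteins encoded side by side on chromosome 16, included MT1G, the gene with the largest fold change toward PATU8988S among the genes plotted by library. MT1G (chr16:56666730-56668065) was at 84.9, 76.5 and 76.8 CPM in PATU8988S, whereas HPAFII had 2 counts in all, a ratio of 328 with a counting interval of 90.5 to 2710. The family was put together after its values were seen. Of its 11 members, 7 were tested, 4 were higher in PATU8988S with and without replicate 2, and 1 was higher in HPAFII. MT1E was at 190, 154 and 182 CPM against 7.93, 17.2 and 6.28 CPM, and MT1F at 49.6, 50.2 and 72.4 CPM against 3.80, 3.13 and 3.66 CPM. The 2 lines were well apart for both, with log2 fold changes of 4.15 ± 0.33 and 3.98 ± 0.32. MT1X was at 25.5, 38.2 and 46.9 CPM in PATU8988S and at 6.98, 7.84 and 6.28 CPM in HPAFII (2.41 ± 0.36, adjusted p = 0.000287). MT2A, at 807, 820 and 800 CPM against 426, 358 and 673 CPM, did not overlap between the lines but was not called (0.74 ± 0.41, adjusted p = 0.232). MT1A was the member higher in HPAFII, at 13.6, 16.5 and 7.59 CPM against 1.70, 7.02 and 2.90 CPM, and it lost the call without HPAFII replicate 2 (adjusted p = 0.0815) or 1 (0.0971) and without PATU8988S replicate 1 (0.113) or 3 (0.11). MT1E stood at 153 to 220 CPM on average in KP4, PANC1 and PK45H, so that for this gene HPAFII was the low line, while MT1G averaged under 1 CPM in all 3. Metallothionein transcripts are near-identical, so the split of reads between members is uncertain.

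The 250 bases before the start of MT1X and MT2A are shown because one was called and the other was not, with the same motif in both. Metallothionein genes are known to be switched on by metal through the metal response element, searched here as TGCACNC or TGCGCNC on both strands. Matches are in capitals, 5' to 3', from RefSeq's GRCh38.p14 table, which held 5 of the 11 members. MT1X is read from chr16:56682220-56682469, plus strand, and MT2A from chr16:56608334-56608583, plus strand.

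MT1X: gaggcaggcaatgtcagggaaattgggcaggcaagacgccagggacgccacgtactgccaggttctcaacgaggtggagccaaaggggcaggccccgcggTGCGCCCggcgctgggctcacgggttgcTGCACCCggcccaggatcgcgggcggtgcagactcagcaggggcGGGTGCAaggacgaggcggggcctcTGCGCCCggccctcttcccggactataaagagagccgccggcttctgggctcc

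MT2A: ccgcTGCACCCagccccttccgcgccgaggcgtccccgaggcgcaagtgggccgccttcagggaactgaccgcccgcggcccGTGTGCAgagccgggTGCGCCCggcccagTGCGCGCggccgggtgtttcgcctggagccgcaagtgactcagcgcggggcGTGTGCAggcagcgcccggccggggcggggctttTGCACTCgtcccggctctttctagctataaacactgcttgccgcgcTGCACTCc

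There were 4 matches before MT1X, at -150, -122, -78 and -53 from the start, and 7 before MT2A. All 5 metallothionein genes with an entry held at least 1 match, against 28.5% of the 27305 genes with an entry in the table and 39.2% of the 10832 of them that were tested. The motif is short and common, so a match is only a description of these letters.

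In HPAFII the largest differences included secreted proteases and growth factor modifiers. MMP1, interstitial collagenase (chr11:102789919-102798160), was at 166, 44.7 and 141 CPM against 1.95, 1.75 and 1.45 CPM (-6.08 ± 0.49, adjusted p = 2.38e-06). MMP7, matrilysin (chr11:102520508-102530747), was at 922, 389 and 626 CPM against 14.4, 8.77 and 13.6 CPM (-5.72 ± 0.37, adjusted p = 5.03e-07). In both genes HPAFII replicate 2 was the lowest of its line and still far above every PATU8988S library, a separation the rule required. Both kept low means in KP4, PANC1 and PK45H, at most 9.76 CPM for MMP7 and 1.93 CPM for MMP1.

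KLK8, a kallikrein-related serine protease (chr19:50996008-51001604), was at 107, 34.5 and 107 CPM in HPAFII and at 1.46, 1.10 and 1.16 CPM in PATU8988S (-6.05 ± 0.51, adjusted p = 2.64e-06). It belongs to a row of 15 related genes on chromosome 19, a family added after values were seen, of which 7 were tested and 4 were higher in HPAFII with and without replicate 2. KLK6 was at 1746, 531 and 1480 CPM in HPAFII against 58.9, 60.5 and 71.6 CPM, and KLK10 gave 462, 193 and 439 CPM against 111, 113 and 105 CPM. The family did not move as 1 block. KLK11 was at 93.2, 27.4 and 85.6 CPM in HPAFII and at 113, 148 and 153 CPM in PATU8988S, not called (adjusted p = 0.0633; 0.0442 without HPAFII replicate 1), and KLK1 was the member higher in PATU8988S (1.79 ± 0.45, adjusted p = 0.011).

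Other genes of the HPAFII side were RNASE1, a secreted ribonuclease, at 59.9, 24.3 and 63.3 CPM against 1.46, 0 and 0 CPM, and GRIN2D, a glutamate receptor subunit, at 83.1, 31.3 and 85.0 CPM against 0.973, 0.877 and 0.290 CPM. IGFBP3, which binds insulin-like growth factors, was at 36.8, 7.84 and 29.6 CPM against 0.243, 0.439 and 0.869 CPM. PLAAT4, a phospholipid-modifying enzyme, was at 150, 39.96 and 147 CPM against 2.92, 2.41 and 1.45 CPM. Replicate 2 was again the lowest HPAFII library for all 4 and, as the rule required, above every PATU8988S library. VAV1, a guanine nucleotide exchange factor best known from blood cells, was at 33.3, 5.48 and 22.8 CPM against 0.243, 0.439 and 0.290 CPM, and BTBD11 at 41.5, 10.2 and 37.2 CPM against 0.486, 0.219 and 1.74 CPM. SYNPO2, at 132, 8.62 and 1.83 CPM in HPAFII, met the rule through replicate 1 alone, and without that library it was not called (-1.78, adjusted p = 0.154).

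**Figure D2:**
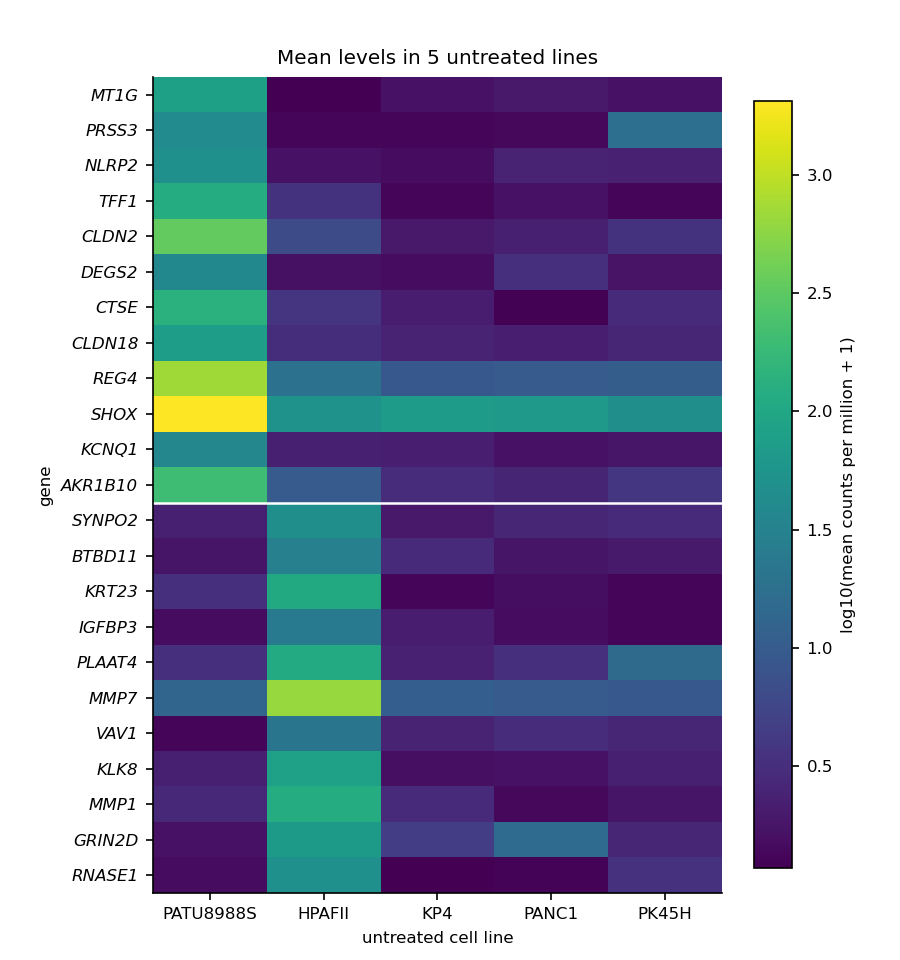
Heat map of log10(mean CPM + 1) over 3 untreated libraries for the same 23 genes (rows) in 5 lines (columns), with genes higher in PATU8988S above the white line. In each row above the line the PATU8988S cell is the brightest and in each row below it the HPAFII cell is, while the SHOX row is fairly bright in all 5 lines and its PATU8988S cell, raised by 1 library, is the brightest of all.

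The called genes were also placed against the range of the means of KP4, PANC1 and PK45H. Over all 13785 genes tested, PATU8988S lay above that range for 3795 and below it for 3900, and HPAFII above for 4086 and below for 3706. For 449 of the 1523 genes higher in PATU8988S (29.5%), PATU8988S lay above that range and HPAFII within it. For 368 (24.2%) PATU8988S lay within and HPAFII below, and for 317 (20.8%) the 2 lines lay on opposite sides. Among the 1260 genes higher in HPAFII, 333 (26.4%) had HPAFII above and PATU8988S within, 319 (25.3%) had PATU8988S below and HPAFII within, and 268 (21.3%) had the lines on opposite sides. Called genes were chosen by direction, and no called gene had the higher line in the lower position, so these shares were partly built in. Joint positions over all genes tested were not computed, so the shares have no baseline.

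**Figure D3:**
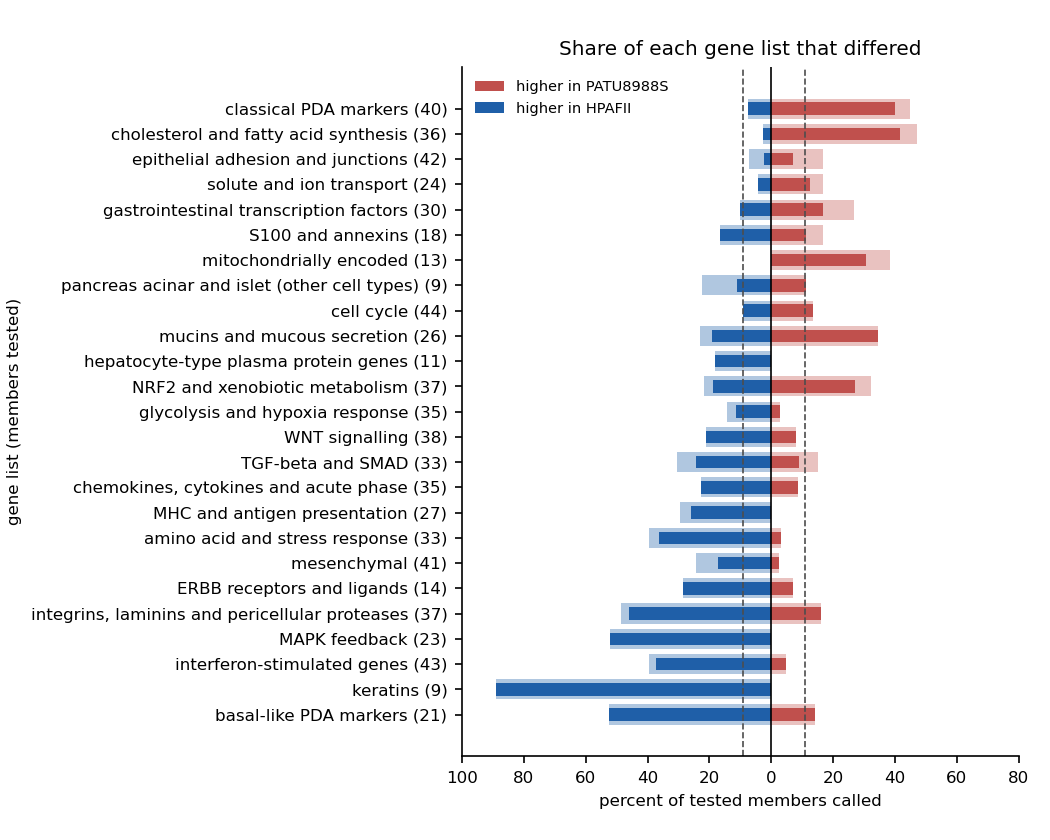
Percent of the tested members of 25 gene lists (those with at least 9 tested) called higher in PATU8988S (red, right) or in HPAFII (blue, left), ordered by median log2 fold change, with narrow dark bars for calls that also held without HPAFII replicate 2. Dashed lines mark the share among all genes tested, 11% and 9.14%, and numbers in brackets are members tested.

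Of the classical PDA markers, 40 of 42 were tested, 18 were higher in PATU8988S and 3 in HPAFII, with a median log2 fold change of 1.12. Among them 16 and 3 were also called without replicate 2, which gave a median of 0.84. Beside TFF1, CTSE, CLDN18, REG4 and TFF2 these include GATA6, the factor used most often to mark the classical state. GATA6 was at 14.1, 18.9 and 15.4 CPM in PATU8988S and at 4.12, 6.27 and 8.11 CPM in HPAFII (1.37 ± 0.30, adjusted p = 0.00469). The exceptions included KRT20, an intestinal keratin, at 9.83, 3.13 and 11.5 CPM in HPAFII and under 1 CPM in each PATU8988S library (-3.48 ± 0.69, adjusted p = 0.00259).

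The basal-like markers went the other way. Of 40 listed genes 21 were tested, 11 were higher in HPAFII and 3 in PATU8988S, with a median of -1.76. All 14 were called without replicate 2 too, where 24 were tested, 15 were higher in HPAFII and the median was -2.20. In this and every other list a gene could pass the low-count filter through 1 line alone. A member tested only through HPAFII could only come out higher there, so part of these counts and medians was built in. SPRR1B, a component of the squamous cornified envelope, had no count in PATU8988S and 15.9, 3.92 and 14.4 CPM in HPAFII, at least 53.9-fold higher when 3 counts over the PATU8988S libraries are taken as the floor. DHRS9, a retinol dehydrogenase, was at 60.9, 19.6 and 57.3 CPM against 1.70, 1.10 and 1.74 CPM, and CDA, cytidine deaminase, at 85.9, 42.3 and 78.0 CPM against 1.70, 1.97 and 4.06 CPM. Neither overlapped between the lines. The 3 markers higher in PATU8988S were S100A2, at 37.9, 39.2 and 42.9 CPM against 5.71, 16.5 and 2.88 CPM, LAMA3 and CTSV. LAMA3, a laminin chain of hemidesmosomes, was at 501, 512 and 509 CPM against 146, 54.8 and 118 CPM. MUC5AC and KRT17, other markers of the axis, were too low to be tested, with no library above 4.39 CPM.

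Keratins, the intermediate filaments of epithelia, were higher in HPAFII for 8 of 9 tested members and for none in PATU8988S (median -1.54), and all 8 calls held without replicate 2. KRT7, the ductal keratin (chr12:52233243-52255853), was at 4651, 2186 and 5181 CPM in HPAFII and at 820, 821 and 792 CPM in PATU8988S (-2.31 ± 0.26, adjusted p = 3.29e-05). KRT19, its ductal partner (chr17:41523617-41528308), was at 925, 350 and 991 CPM against 268, 257 and 255 CPM (-1.54 ± 0.28, adjusted p = 0.00137). The lines did not overlap for either, although replicate 2 lay close to PATU8988S for KRT19. KRT23 was at 124, 49.4 and 149 CPM against 4.14, 2.85 and 0 CPM, and KRT81 at 7.93, 5.48 and 3.66 CPM against 0.486, 1.32 and 1.16 CPM. KRT81 lost the call without HPAFII replicate 1 (adjusted p = 0.0703), which left 5 keratins called, and without PATU8988S replicate 1 (0.0598). The list holds members of the classical list, such as KRT20, and of the basal-like list, such as KRT7. Other lists share members too, so their counts are not independent. TFF1 is on the classical and mucin lists, CTSE on the classical and protease lists, and LAMA3 on the basal-like and laminin lists.

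Of 42 adhesion and junction genes tested, 7 were higher in PATU8988S and 3 in HPAFII, of which 3 and 1 were also called without replicate 2. The calls made up 23.8% of the list, close to the 20.2% of all genes tested. SPINT2, an inhibitor of cell-surface serine proteases, was at 1494, 2154 and 1943 CPM against 640, 422 and 538 CPM (1.80 ± 0.30, adjusted p = 0.000623). CTNND1, p120 catenin, was the HPAFII gene called both ways (-0.81 ± 0.15, adjusted p = 0.00165). The calls of MARVELD2 and PKP2 came from single values in replicate 2, 6644 CPM for MARVELD2 against 78.3 and 73.5 in its mates and 1522 CPM for PKP2 against 37.7 and 45.3. Without that library both log2 fold changes turned positive, 0.37 and 0.42, and neither was called (adjusted p = 0.755 and 0.595). ESRP1, a splicing factor of epithelial cells, missed the call without HPAFII replicate 2 (1.08, adjusted p = 0.0628) and without PATU8988S replicate 2 (0.0773) or 3 (0.0711). Without PATU8988S replicates 1, 2 or 3 the list had 6, 3 or 4 calls in all.

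Of 41 mesenchymal genes tested, 10 were higher in HPAFII and 1, COL4A2, in PATU8988S, with a median of -0.61. Without replicate 2 the median was -0.25, with 7 higher in HPAFII and 3 in PATU8988S. The calls made up 26.8% of the list against 20.2% of all genes tested, and 23.8% against 19.8% without replicate 2. Summed over the list, HPAFII libraries held 1858 to 2290 CPM and PATU8988S libraries 1434 to 1544 CPM, with replicate 2 the highest. VIM and ZEB1 were not among the members called in the fit of the 15 untreated libraries. TGFBI, a matrix protein induced by TGF-beta, was at 252, 105 and 186 CPM against 9.73, 13.2 and 6.95 CPM (-4.18 ± 0.35, adjusted p = 2.64e-06), and NT5E, the surface nucleotidase CD73, at 49.1, 34.5 and 52.1 CPM against 19.0, 16.4 and 18.0 CPM. SNAI2, a zinc-finger repressor also active in basal epithelia, was at 10.1, 4.70 and 12.6 CPM in HPAFII with 1 count in PATU8988S, a ratio of 126 with a counting interval of 22.1 to 5047. COL4A2 was at 19.2, 14.7 and 17.4 CPM in PATU8988S and at 2.85, 12.54 and 3.66 CPM in HPAFII, where replicate 2 stood out, and among the comparisons without 1 library it was called only without that one (adjusted p = 0.0545 to 0.128 without each of the other 5). Without PATU8988S replicate 1 or 3 the mesenchymal list had 6 calls in place of 11.

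**Figure D4:**
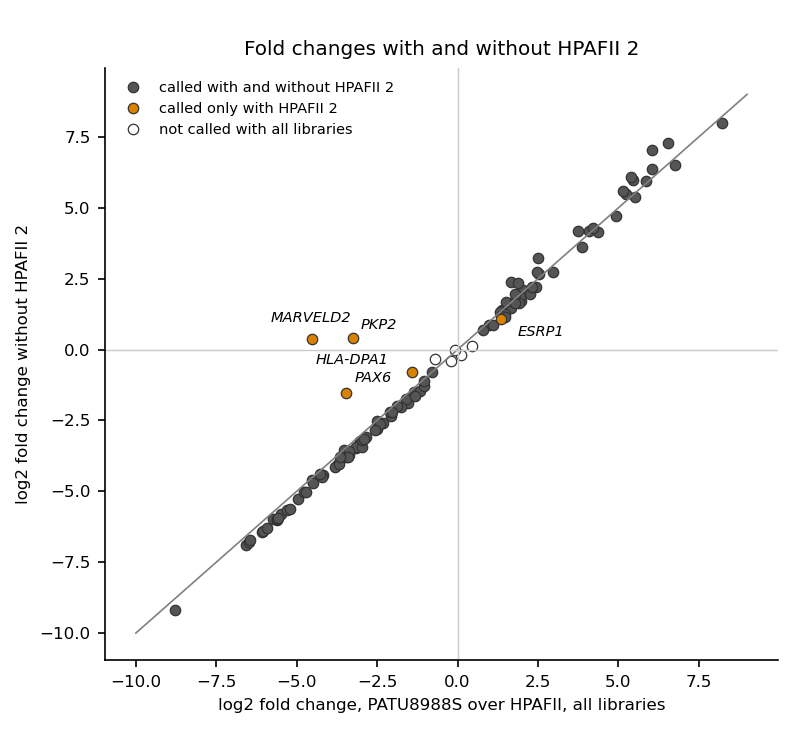
Log2 fold changes of the named genes of the design's rule with all libraries (horizontal axis) and without HPAFII replicate 2 (vertical axis), with the line of equality. Most points lie near the line, those on the HPAFII side slightly beyond it, and MARVELD2, PKP2 and PAX6 (orange) lie far off it.

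Of integrins, laminins and pericellular proteases, 18 of 37 tested members were higher in HPAFII and 6 in PATU8988S (median -0.72; 17 and 6 in both versions). MMP1, MMP7 and KLK8 led the HPAFII side. CTSE, LAMA3 and MMP15 led the PATU8988S side, the last a membrane-bound metalloprotease at 16.5, 19.3 and 20.3 CPM against 5.71, 3.13 and 6.28 CPM. The promoter of MMP7 is shown because its AP-1 site, the element bound by FOS and JUN proteins, is well known. AP-1 was searched as TGANTCA on both strands and read from chr11:102530748-102530997, minus strand.

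MMP7: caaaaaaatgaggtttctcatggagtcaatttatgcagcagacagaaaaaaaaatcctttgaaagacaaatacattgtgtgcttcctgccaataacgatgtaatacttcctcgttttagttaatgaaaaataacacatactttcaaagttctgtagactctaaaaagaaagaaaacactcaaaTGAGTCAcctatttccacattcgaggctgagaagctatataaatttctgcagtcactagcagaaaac

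The match began at -67. The motif was found before 8.06% of the 27305 genes with an entry and 6.47% of the 10832 of them that were tested. It was found before 8.75% of the 994 called genes higher in HPAFII and 5.99% of the 1186 higher in PATU8988S, a difference that was not tested.

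Negative-feedback genes of the MAPK pathway, which are read as a record of ERK signalling, were higher in HPAFII for 12 of 23 tested members and in PATU8988S for none (median -0.74). All 12 were also called without replicate 2, while 7 members were called without HPAFII replicate 3 and 6 without PATU8988S replicate 3. PHLDA1 was at 485, 348 and 445 CPM in HPAFII and at 101, 97.6 and 101 CPM in PATU8988S (-2.09 ± 0.18, adjusted p = 3.88e-06). DUSP6, the phosphatase that acts on ERK, was at 224, 104 and 187 CPM against 44.8, 57.0 and 50.4 CPM (-1.77 ± 0.24, adjusted p = 0.000154). Neither gene overlapped between the lines, and the 3 PATU8988S values were close to each other in both. Of the ERBB family list, 4 of 14 tested members were higher in HPAFII and 1 in PATU8988S, in all 35.7% against 20.2% of all genes tested. There were 8 calls without HPAFII replicate 2 and 3 without HPAFII replicate 3. The EGFR ligands EREG, at 50.1, 20.4 and 82.4 CPM against 4.62, 5.04 and 5.51 CPM, and AREG, at 139, 73.7 and 210 CPM against 16.5, 16.4 and 17.7 CPM, showed the largest changes. Their log2 fold changes were -3.37 ± 0.43 (adjusted p = 8.94e-05) and -3.07 ± 0.31 (adjusted p = 1.14e-05). ERRFI1, an inhibitor of EGFR, was also higher in HPAFII (-1.62 ± 0.30, adjusted p = 0.00153), and LRIG1, another inhibitor of the family, in PATU8988S (1.31 ± 0.33, adjusted p = 0.0117; 0.0593 without HPAFII replicate 3).

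Interferon-stimulated genes were higher in HPAFII for 17 of 43 tested members and in PATU8988S for 2 (median -0.77). Of these, 16 and 2 were called without replicate 2 as well. IFI27, a small mitochondrial membrane protein, was at 461, 185 and 542 CPM in HPAFII and at 34.8, 26.3 and 31.3 CPM in PATU8988S (-3.69 ± 0.34, adjusted p = 5.96e-06). IFIT3, which takes part in sensing viral RNA, was at 15.5, 14.9 and 17.8 CPM against 1.22, 1.97 and 0.869 CPM (-3.52 ± 0.39, adjusted p = 2.71e-05). GBP1, a guanylate-binding protein, varied widely within HPAFII, at 7.61, 2.35 and 19.1 CPM, and was at 0.486, 1.32 and 0.290 CPM in PATU8988S (adjusted p = 0.00639; 0.0502 without HPAFII replicate 3). The PATU8988S exceptions were 2 neighbouring membrane proteins that block virus entry. IFITM2 was at 375, 481 and 518 CPM against 69.8, 34.5 and 68.8 CPM (2.98 ± 0.25, adjusted p = 2.78e-06) and IFITM3 at 464, 693 and 509 CPM against 335, 270 and 354 CPM (0.80 ± 0.20, adjusted p = 0.0119; 0.0665 without PATU8988S replicate 2). The IFITM genes are close copies and reads may be split between them. The summed level of the whole list, which includes these 2 genes, overlapped between the lines, at 1466 to 1741 CPM in PATU8988S and 1241 to 2040 CPM in HPAFII.

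These genes are known to be switched on through a shared promoter element bound by interferon-activated factors, searched here as GAAANNGAAA on both strands. The upstream 250 bases of 5 members are shown, 4 higher in HPAFII and IFITM3, higher in PATU8988S, to let the element be compared across both directions. ISG15, IFIT1, SAMD9 and IFITM3 were picked after values were seen, as members with 1 listed start. Capitals mark matches, which overlap in ISG15. ISG15 is read from chr1:1013247-1013496, plus strand; IFIT1 from chr10:89392373-89392622, plus strand; GBP1 from chr1:89065209-89065458, minus strand; SAMD9 from chr7:93117980-93118229, minus strand; IFITM3 from chr11:320861-321110, minus strand.

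ISG15: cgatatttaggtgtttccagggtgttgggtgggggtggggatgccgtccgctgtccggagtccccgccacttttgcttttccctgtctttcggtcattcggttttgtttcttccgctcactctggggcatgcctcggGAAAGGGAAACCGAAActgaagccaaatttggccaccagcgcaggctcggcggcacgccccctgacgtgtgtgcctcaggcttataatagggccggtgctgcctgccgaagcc

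IFIT1: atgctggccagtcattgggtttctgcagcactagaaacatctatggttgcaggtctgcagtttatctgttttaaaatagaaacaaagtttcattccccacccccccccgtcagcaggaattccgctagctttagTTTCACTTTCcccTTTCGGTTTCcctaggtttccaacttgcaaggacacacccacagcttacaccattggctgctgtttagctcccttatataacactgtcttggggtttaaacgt

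GBP1: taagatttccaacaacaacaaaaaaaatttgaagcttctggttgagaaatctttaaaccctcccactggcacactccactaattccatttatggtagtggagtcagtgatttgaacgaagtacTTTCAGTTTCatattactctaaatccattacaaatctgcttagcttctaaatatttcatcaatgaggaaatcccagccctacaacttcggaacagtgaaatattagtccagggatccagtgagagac

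SAMD9: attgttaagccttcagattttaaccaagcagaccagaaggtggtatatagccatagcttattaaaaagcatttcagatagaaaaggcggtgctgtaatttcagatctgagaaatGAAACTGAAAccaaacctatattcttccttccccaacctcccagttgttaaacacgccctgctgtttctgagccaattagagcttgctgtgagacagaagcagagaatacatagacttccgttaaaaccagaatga

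IFITM3: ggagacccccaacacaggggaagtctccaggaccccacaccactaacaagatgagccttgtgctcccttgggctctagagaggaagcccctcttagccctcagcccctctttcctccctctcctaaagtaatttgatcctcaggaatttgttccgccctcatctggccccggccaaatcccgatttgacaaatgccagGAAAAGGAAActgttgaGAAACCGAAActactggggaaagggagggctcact

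ISG15, a ubiquitin-like modifier, was at 134, 81.5 and 126 CPM in HPAFII and at 24.1, 27.4 and 31.0 CPM in PATU8988S. IFIT1 was at 6.66, 4.70 and 4.97 CPM against 1.70, 0.658 and 0.869 CPM, and SAMD9, an antiviral factor, at 35.8, 17.2 and 35.3 CPM against 5.84, 3.95 and 3.19 CPM. All 3 were separated between the lines. A match was found before 26 of the 36 list members with an entry (72.2%) against 3.71% of all 27305 genes and 3.31% of the 10832 tested. It did not set the called members apart, since 11 of 15 called members held it and 12 of 17 tested members that were not called. IFITM3, which ran against the rest, held 2 matches, at -52 and -35.

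Genes of antigen presentation by MHC molecules were higher in HPAFII for 8 of 27 tested members and in PATU8988S for none (median -0.56). The calls made up 29.6% of the list, against 20.2% of all genes tested, and 7 of the 8 were called without replicate 2. PSMB9, a subunit of the immunoproteasome, was at 34.6, 26.6 and 37.2 CPM against 5.59, 9.87 and 11.6 CPM (-1.88 ± 0.25, adjusted p = 0.000106). HLA-DMA, which loads peptides on class II molecules, was at 8.24, 2.35 and 8.63 CPM against 1.46, 0.219 and 0.580 CPM. The call of HLA-DPA1 rested on replicate 2, at 18.0 CPM against 6.02 and 5.49 CPM in its mates (adjusted p = 0.197 without it, and 0.0864 to 0.126 without any 1 PATU8988S library). Without PATU8988S replicates 1, 2 or 3 the list had 5, 4 or 5 calls. Reads of MHC genes can be split among alleles and paralogs.

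**Figure D5:**
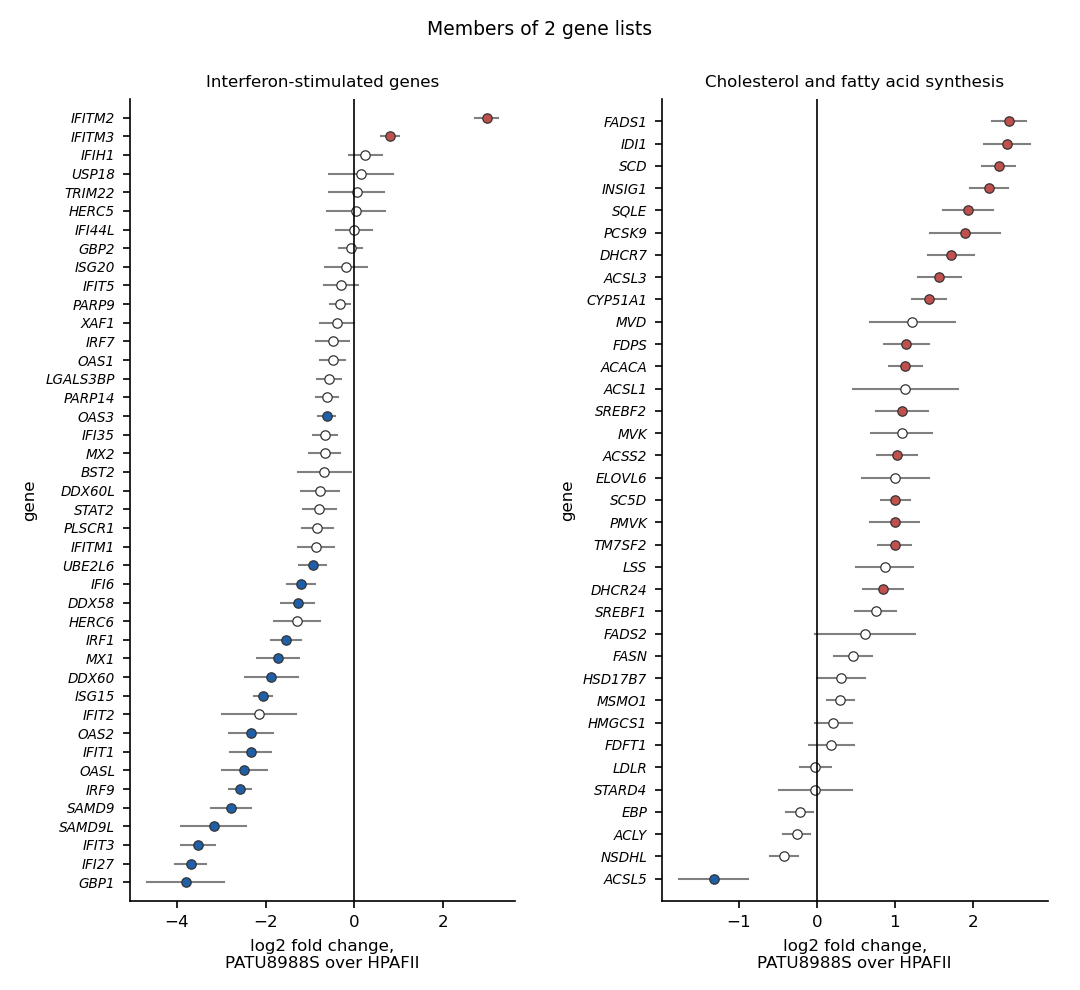
Log2 fold changes with standard errors (bars) for members of 2 lists that were tested, filled where called and open where not. On the left 17 interferon-stimulated genes are filled below 0 and IFITM2 and IFITM3 above, and on the right 17 genes of lipid synthesis are filled above 0 and ACSL5 below.

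Of the 36 cholesterol and fatty acid synthesis genes, all tested, 17 were higher in PATU8988S and 1 in HPAFII, with a median of 1.00 (0.91 without replicate 2, where 15 and 1 were called). FADS1, a fatty acid desaturase, was at 100.4, 123 and 99.96 CPM in PATU8988S and at 13.95, 28.2 and 18.1 CPM in HPAFII (2.46 ± 0.22, adjusted p = 4.72e-06). SCD, stearoyl-CoA desaturase, was at 372, 409 and 428 CPM against 86.2, 62.7 and 91.04 CPM (2.33 ± 0.21, adjusted p = 3.92e-06). IDI1, which isomerizes the isoprenoid building block, was at 30.9, 36.6 and 32.5 CPM against 8.24, 2.35 and 6.28 CPM (2.44 ± 0.29, adjusted p = 5.35e-05). Each was level across PATU8988S and lower in every HPAFII library. The other 18 members were not called. ACSL5, a fatty acid activating enzyme, was higher in HPAFII at 253, 88.5 and 224 CPM against 73.2, 79.1 and 75.6 CPM (-1.32 ± 0.44, adjusted p = 0.0471), a call that held without HPAFII replicate 2 (0.0113) and not without any of the other 5 libraries (0.114 to 0.152).

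Genes of xenobiotic and redox metabolism split, 12 of 37 tested higher in PATU8988S and 8 in HPAFII (median -0.10). PATU8988S had the aldo-keto reductases AKR1B10, at 195, 214 and 194 CPM against 13.3, 4.70 and 9.42 CPM, and AKR1C2, at 249, 237 and 230 CPM against 18.7, 8.62 and 20.1 CPM. It also had CES2, a carboxylesterase known for activating irinotecan, at 613, 679 and 646 CPM against 92.6, 128 and 113 CPM (2.54 ± 0.19, adjusted p = 1.44e-06). All 3 genes were level within PATU8988S and did not overlap between the lines. AKR1C copies are near-identical, so AKR1C2 reads may stem from its neighbours. HPAFII had ALDH3A1, an aldehyde dehydrogenase, at 183, 52.5 and 187 CPM against 11.9, 12.7 and 15.7 CPM (-3.40 ± 0.42, adjusted p = 6.1e-05). CYP24A1, which degrades active vitamin D, was at 17.1, 4.70 and 16.7 CPM in HPAFII with 3 counts in PATU8988S, a ratio of 60.7 with a counting interval of 20.3 to 298. The vitamin D receptor gene VDR was also higher in HPAFII (-1.04 ± 0.27, adjusted p = 0.0139; 0.0684 without HPAFII replicate 3 and 0.0696 without PATU8988S replicate 3).

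Amino acid and stress-response genes were higher in HPAFII for 13 of 33 tested members and in PATU8988S for 1 (median -0.59; 12 and 1 in both versions). PCK2, mitochondrial PEP carboxykinase, was at 44.1, 22.7 and 43.7 CPM against 2.92, 1.32 and 0.580 CPM (-4.50 ± 0.38, adjusted p = 2.7e-06). CHAC1, a glutathione-degrading enzyme, was at 53.6, 29.0 and 62.3 CPM against 7.54, 5.70 and 5.51 CPM. SLC7A11, the cystine importer, spread widely within HPAFII, at 122, 29.0 and 375 CPM, and overlapped with the 30.7, 17.1 and 20.3 CPM of PATU8988S through replicate 2 (-2.96 ± 0.61, adjusted p = 0.00323). Its log2 fold change was -1.76 without HPAFII replicate 3 (adjusted p = 0.0161) and -3.45 without replicate 2 (5.13e-05). PSPH, the last enzyme of serine synthesis, ran the other way (1.57 ± 0.26, adjusted p = 0.000631). Of the glycolysis and hypoxia list, 5 of 35 were higher in HPAFII and 1 in PATU8988S (median -0.22). These made up 17.1% of the list, not above the 20.2% of all genes tested. CA12, a carbonic anhydrase, was at 44.1, 15.7 and 58.9 CPM against 1.95, 2.19 and 0.290 CPM, SLC16A3, a lactate exporter, was higher in HPAFII (-2.05 ± 0.29, adjusted p = 0.000225) and GPI, a glycolytic isomerase, in PATU8988S (1.09 ± 0.21, adjusted p = 0.00213).

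Among gastrointestinal transcription factors 8 of 30 tested were higher in PATU8988S and 3 in HPAFII (median 0.34), of which 5 and 3 were called in both versions. With all libraries the calls were 36.7% of the members tested, against 20.2% of all genes. CREB3L1, a factor of secretory cells, was at 131, 118 and 135 CPM against 28.9, 34.5 and 30.9 CPM (2.03 ± 0.22, adjusted p = 2.72e-05), beside OVOL2 and GATA6. SPDEF, a goblet cell factor, was at 16.5, 6.27 and 16.7 CPM in HPAFII against 2.43, 3.73 and 3.48 CPM, and NR5A2, an acinar and ductal nuclear receptor, overlapped between lines through replicate 2 (-1.16 ± 0.34, adjusted p = 0.025). Both were called without HPAFII replicate 2 and not without any of the other 5 libraries (adjusted p = 0.0605 to 0.0937 for SPDEF and 0.0539 to 0.145 for NR5A2), and leaving out each of those 5 gave 5 to 7 calls on the list in place of 11. HNF4A, a master factor of gut and liver, was not called, at 19.7, 18.6 and 33.3 CPM in PATU8988S and 24.1, 28.2 and 23.5 CPM in HPAFII (adjusted p = 0.948). Of the mucin and mucous secretion list 9 of 26 tested were higher in PATU8988S and 6 in HPAFII (median 0.03). The HPAFII members included 2 glycan-modifying enzymes, CHST4, a sulfotransferase, at 24.1, 16.5 and 17.8 CPM against 0.973, 0.439 and 1.16 CPM, and ST3GAL1, a sialyltransferase, at 43.1, 22.7 and 44.2 CPM against 6.32, 3.95 and 3.48 CPM.

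WNT pathway genes were higher in HPAFII for 8 of 38 tested and in PATU8988S for 3 (median -0.39, and -0.18 without replicate 2). The calls made up 28.9% of the list, against 20.2% of all genes tested. The HPAFII members held the ligand WNT7B, at 93.5, 36.8 and 101 CPM against 10.5, 8.99 and 6.66 CPM (-3.16 ± 0.31, adjusted p = 9.21e-06), and PORCN, the enzyme that acylates WNT ligands for secretion, at 20.3, 7.05 and 18.6 CPM against 1.46, 0.439 and 0.580 CPM. PATU8988S held LGR5, a receptor that amplifies WNT signals and marks gut stem cells, at 8.51, 7.45 and 8.11 CPM with 2 counts in HPAFII, a ratio of 33.0 with a counting interval of 8.90 to 277. It also held the co-receptor LRP5 (0.98 ± 0.18, adjusted p = 0.00165). On the TGF-beta list 10 of 33 tested were higher in HPAFII and 5 in PATU8988S (median -0.50). ID3, a target of BMP signals, was at 23.1, 15.7 and 23.0 CPM against 0.730, 1.32 and 1.16 CPM (-4.26 ± 0.29, adjusted p = 6.52e-07), and the ligand TGFB2 at 31.1, 13.3 and 22.2 CPM against 5.59, 1.75 and 2.03 CPM. SMAD6, an inhibitor of BMP signals, was higher in PATU8988S, at 40.4, 33.5 and 29.0 CPM against 4.76, 13.3 and 12.8 CPM, as was the receptor ACVR1B (1.36 ± 0.27, adjusted p = 0.00258). Without PATU8988S replicate 2 the list had 9 calls in place of 15.

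Cytokine and acute-phase genes were higher in HPAFII for 8 of 35 tested and in PATU8988S for 3 (median -0.56). These calls were 31.4% of the members tested, against 20.2% of all genes. TNFAIP2 and NFKBIZ, a regulator of NF-kappaB targets, were among those higher in HPAFII, with log2 fold changes of -3.39 and -2.40. The list had 6 calls in both directions together without HPAFII replicate 1. The 3 PATU8988S genes were the chemokine CXCL1 and the antiproteases PI3, or elafin, at 36.5, 37.9 and 35.9 CPM against 1.90, 2.35 and 1.83 CPM, and SLPI, at 102, 110 and 118 CPM against 38.4, 14.9 and 31.7 CPM. Both antiproteases were separated from HPAFII and averaged under 2 CPM in the other 3 lines. S100A4, a calcium-binding protein of motile cells (chr1:153543621-153545806), was at 326, 405 and 376 CPM in PATU8988S and at 20.3, 43.9 and 20.4 CPM in HPAFII (3.74 ± 0.26, adjusted p = 6.52e-07). Of the S100 and annexin list 3 of 18 tested were higher in each line, in all 33.3% against 20.2% of all genes tested.

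Of 44 cell cycle genes tested, 6 were higher in PATU8988S and 4 in HPAFII (median 0.05), close to the shares of all genes. MYBL2, TYMS and CCNB2, a factor, an enzyme and a cyclin of dividing cells, were higher in PATU8988S with log2 fold changes of 1.66, 1.51 and 1.49. The inhibitors encoded at the INK4 locus of chromosome 9 were higher in HPAFII, CDKN2A (chr9:21967752-21995324) at 734, 300.1 and 526 CPM against 88.04, 70.6 and 103 CPM (-2.58 ± 0.30, adjusted p = 4.37e-05) and CDKN2B at 19.97, 12.54 and 17 CPM against 1.46, 1.54 and 0.869 CPM. Both lines stood above KP4, PANC1 and PK45H for CDKN2A, whose means there were 3.46 to 5.14 CPM. CCND1, cyclin D1, was also higher in HPAFII (-1.04 ± 0.31, adjusted p = 0.0263), but not without HPAFII replicate 3 (0.114) or any 1 PATU8988S library (0.0529 to 0.0955). Without PATU8988S replicate 3 the list had 6 calls in place of 10.

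Of 24 transporters tested, 20.8% were called, close to the 20.2% of all genes tested. Higher in PATU8988S were 4, among them the duct bicarbonate carrier SLC4A4 and the chloride channel ANO1, at 65.4, 50.9 and 72.4 CPM against 33.3, 7.05 and 24.1 CPM. SLC4A4 was not called without HPAFII replicate 1 or 3 or PATU8988S replicate 3 (adjusted p = 0.0645, 0.0999 and 0.113), nor ANO1 without the last (0.0638), which left 2 calls. AQP3, a water and glycerol channel, was the 1 higher in HPAFII, at 57.1, 22.7 and 42.6 CPM against 5.11, 5.26 and 6.37 CPM. Of the plasma protein genes typical of liver 2 of 11 tested were higher in HPAFII, SERPINA1, at 181, 68.2 and 165 CPM against 8.999, 8.11 and 14.5 CPM, and RBP4. That share, 18.2%, was close to the 20.2% of all genes called in either direction. Of 20 markers of fibroblasts, endothelium and immune cells 7 passed the filter on low counts, none was called, and the summed level was 30.5 to 33.8 CPM in PATU8988S and 49.8 to 57.0 CPM in HPAFII. Of 21 acinar and islet markers 9 were tested, with 1 higher in PATU8988S and 2 in HPAFII, that is 33.3% against 20.2% of all genes. Without PATU8988S replicate 2 or 3 a single call was left. PAX6, one of those higher in HPAFII, stood at 139 CPM in replicate 2 and at 13.6 and 13.9 CPM in its mates, and was not called without HPAFII replicate 2 (adjusted p = 0.102) or PATU8988S replicate 2 (0.0529) or 3 (0.055).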

How the data were processed

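The members and gene lists were chosen with earlier results of these data known. PLATE-seq, a 3' end RNA sequencing method run on a plate, was used on the 51 libraries, per the labels' protocols. The deposited table holds read counts per gene symbol, made by the authors with kallisto 0.44.0 on GRCh38, per the submitters' processing notes. Replicates were not pooled in it, and strand use was not given in the sources used here. Kallisto divides reads of similar transcripts between them, so near-identical genes are uncertain.

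The counts were tested with edgeR 4.0.16 in R 4.3.3: filterByExpr by group, TMM scaling, glmQLFit on the 15 untreated libraries and the contrast PATU8988S minus HPAFII, with Benjamini-Hochberg adjustment over 13785 genes. DESeq2 1.42.0 and other settings were alternatives. The fit was tested on simulated data. Named genes were OVOL2, 12 identity genes, the 12 largest changes each way (mean of at least 20 CPM in the higher line), and per list up to 3 called members each way (at least 5 CPM) and up to 2 with the highest level among those not called. Genes barred by the rule, 5 in all, and mitochondrial genes were left out of this choice, and some genes the rule names are not reported here. Ratios with intervals are of counts scaled to TMM-adjusted library totals, with exact 95% intervals that cover counting error only. Coordinates and promoters are RefSeq's (GRCh38.p14); 25057 of 25421 symbols matched. Depth limits precision: HPAFII replicate 2 is the shallowest of the 6 libraries.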

Additional observations from a re-analysis of the deposited data

How the results depend on the processing

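With all libraries 2783 genes were called, and leaving out 1 library gave 1898 to 2816. Genes higher in PATU8988S numbered 1079 to 1425 and genes higher in HPAFII 819 to 1391 in those fits. The lowest counts of genes higher in HPAFII, 830 and 819, came without PATU8988S replicate 2 and replicate 3. Fitting only the 6 libraries called 1714 genes (912 higher in PATU8988S, 802 in HPAFII), thinning all libraries to the smallest total 1730 (917 and 813), and a test against a 2-fold change 478 (203 and 275). The cause was not tested for the first, while thinning removes counts and the last asks for a larger change. Fitting all 51 libraries gave 3531, DESeq2 3083, no filter 2471 and RLE size factors 2793. A replicate block gave 2463, but same-numbered libraries deviated together at -0.125, -0.033 and 0.051, so the numbers do not pair the libraries. Of the 124 named genes reported and tested, 117 were called, and 97 stayed called whichever library was left out. Many were named because they were called, so these counts follow from the choice and do not describe other genes. Of all 13785 genes tested, 20.2% were called.

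MARVELD2 ranged from -5.08 to 0.37 and PKP2 from -3.80 to 0.42 when 1 library was left out, positive only without HPAFII replicate 2 (0.37 and 0.41 when only the 2 lines were fitted). Genes not called that changed sign were EPCAM (-0.18 to 0.31 with 1 library left out, and -0.18 in the fit of the 2 lines without HPAFII replicate 2), ZEB1 (-0.66 to 0.21) and HNF4A (-0.37 to 0.09). At the depth of HPAFII replicate 2 genes under a few CPM rest on single counts.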

Other observations

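By chromosome, the median log2 fold change of tested genes departed most from 0 on chromosome X (-0.60 over 436 genes, 28.9% higher in HPAFII and 2.98% in PATU8988S) and on chromosome 13 (0.53 over 236 genes, 30.1% higher in PATU8988S and 1.69% in HPAFII). Without HPAFII replicate 2 these medians were -0.56 and 0.66. Chromosome 15 had a median of 0.25 with 22.3% of 443 genes higher in PATU8988S, and chromosomes 12 and 21 both had a median of -0.37, with 18.5% and 17% higher in HPAFII. In windows of 25 neighbouring tested genes the highest median was 1.41, at the end of the long arm of chromosome 13 (chr13:107163510-113641473 in GRCh38), where 16 genes were called higher in PATU8988S and none in HPAFII. Windows on chromosome 15 had medians of 1.06. A window on chromosome 18 (chr18:21612314-28177130) had a median of 1.00 with 12 genes higher in PATU8988S and none in HPAFII. It holds both GATA6 and LAMA3, the latter a basal-like marker higher in PATU8988S. The lowest were -1.03 on chromosome X (chrX:70133447-75156283, 14 of 25 higher in HPAFII) and -1.0 on chromosome 12 (chr12:22193391-29335616, 11 of 25). These windows were picked by their values, and copy number was not measured here.

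Single libraries held values far above their mates in both lines. Of the genes at 5 times or more both mates, 29 of 104 in HPAFII replicate 2 were among the calls higher in HPAFII, and 8 of 37 in PATU8988S replicate 2 were among the calls higher in PATU8988S.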
